A study of Mus musculus with 12 samples.

Results

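Cholesterol and fatty acid synthesis was followed through 31 genes in mouse splenocytes that had been cultured with tumour cells. The genes were chosen by name from these pathways, with earlier results of these data known. Each was represented by its brightest probe set, the one with the highest mean signal over 12 arrays among those that the platform annotation assigns to a single gene. All 31 were found among 18193 genes named on the array, and all 31 passed the filter on dim probe sets, which left 11318 genes for testing. They comprised 6 enzymes of the mevalonate arm, 11 of squalene and sterol formation, 5 regulators and carriers, and 9 enzymes of fatty acid synthesis and desaturation.

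Splenocytes of DBA/2 mice aged 10 weeks were kept for 9 days with KLN-205KD cells, which are KLN-205 squamous lung carcinoma cells with a knockdown of SEMA3A. Every culture received interleukin-2, a T cell growth factor, at 100 units/mL, and every culture held tumour cells with the knockdown, the control included. The control group had nothing further. The tumour cells of the SEMA6A group overexpressed the membrane-bound semaphorin SEMA6A. The SEMA3A group received 10 µg/mL of the purified, secreted semaphorin SEMA3A, and the combined group, SEMA6A+SEMA3A, received the protein on top of the overexpression. Each of the 4 groups had 3 arrays. The promoter that drives SEMA6A, the number of clones and the number of animals are not given in the sources used here. Nothing in the labels says whether replicates were cultured apart, so p-values measure the spread between these samples, which may be technical.

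The mevalonate arm condenses acetyl-CoA units and turns them into farnesyl diphosphate, and the sterol arm joins farnesyl units into squalene, closes the rings and trims lanosterol to cholesterol. The fatty acid arm makes acetyl-CoA from citrate or acetate, builds palmitate from it, and then elongates and desaturates the chain. Transcription of both arms is driven by the SREBP factors, which are held in the endoplasmic reticulum by INSIG proteins when sterols are plentiful and are escorted by SCAP to the Golgi for cleavage when sterols are low. Dividing lymphocytes need membrane lipid, and activated T cells are known to raise this programme.

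SREBP factors bind sterol regulatory elements in promoters next to sites for the partners NF-Y and Sp1, so the 250 bases before the start sites were read from RefSeq (GRCm38.p6) and searched on both strands. Promoters were found for 24 of the 31 genes, with 30 start sites in all. Fdps, Fdft1, Sqle, Stard4, Scd1, Scd2 and Fads1 had none and were not searched. The letters TCACNCCAC, a sterol regulatory element, occurred in 1 of the 30 (3.33%), against 1.05% of 32841 promoters of the same length. CCAAT, the NF-Y motif, occurred in 20 of 30 (66.7%) against 33.9% of all, and GGGCGG, an Sp1 motif, in 22 of 30 (73.3%) against 32.7%. A match describes letters in a window and not a bound site, and other forms of the sterol element were not searched. In Hmgcs1 the sterol element starts at position -137 from the start site and overlaps no CCAAT match. Promoters of 4 genes whose signals are described further on are printed 5′ to 3′, with CCAAT in either orientation and the sterol element in capitals. Hmgcs1 is shown as the single gene of the 24 with a match to the sterol element letters. Mvd and Idi1 are shown because their differences from the control had opposite signs and each holds 2 CCAAT matches. Srebf2 is shown as the regulator with the smallest p. In this order the 4 promoters lie at chr13:119690101-119690350 on the plus strand, chr8:122443423-122443672 on the minus strand, chr13:8885356-8885605 on the plus strand and chr15:82147019-82147268 on the plus strand.
Hmgcs1: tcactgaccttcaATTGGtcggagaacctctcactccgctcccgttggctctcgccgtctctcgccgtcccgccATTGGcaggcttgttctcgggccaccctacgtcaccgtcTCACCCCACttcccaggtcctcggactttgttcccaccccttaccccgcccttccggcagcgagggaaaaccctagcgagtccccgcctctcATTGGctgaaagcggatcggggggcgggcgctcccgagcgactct
Mvd: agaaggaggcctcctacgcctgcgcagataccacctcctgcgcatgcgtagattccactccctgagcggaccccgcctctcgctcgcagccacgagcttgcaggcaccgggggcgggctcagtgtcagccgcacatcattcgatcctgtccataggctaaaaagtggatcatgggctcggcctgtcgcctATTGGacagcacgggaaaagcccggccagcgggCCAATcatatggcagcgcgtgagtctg
Idi1: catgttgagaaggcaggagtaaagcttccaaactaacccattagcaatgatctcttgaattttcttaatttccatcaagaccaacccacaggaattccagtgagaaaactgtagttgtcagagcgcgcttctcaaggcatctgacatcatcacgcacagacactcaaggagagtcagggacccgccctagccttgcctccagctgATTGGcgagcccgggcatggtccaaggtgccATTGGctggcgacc
Srebf2: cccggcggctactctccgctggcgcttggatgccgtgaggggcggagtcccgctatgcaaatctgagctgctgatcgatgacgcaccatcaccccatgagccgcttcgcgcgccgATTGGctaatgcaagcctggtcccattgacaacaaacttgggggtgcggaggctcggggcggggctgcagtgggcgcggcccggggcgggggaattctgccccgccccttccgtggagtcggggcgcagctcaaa

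Array medians ran from 42.7 to 53.7 in the linear units of the deposited intensities. Replicate 2 of the SEMA6A group stood apart in RNA quality, with a 3′/5′ signal ratio of 1.22 for Gapdh against 0.767 to 0.818 on the other 11 arrays, and 35.7 for the transferrin receptor against 5.93 to 23.3. Markers of cytotoxic lymphocytes were the clearest, since all 10 genes of cytotoxic T and NK cells passed the filter, with Gzmb, the granzyme B gene, at signals of 38065 to 50605. SEMA6A replicate 2 stood apart in these markers as well: 5 of the 10 were below and 1 was above the range of the other 11 arrays. There Cd8a, of the CD8 co-receptor, was at 496 against 1968 to 4231 elsewhere, and Klrk1, of the receptor NKG2D, at 489 against 2037 to 3809. By contrast 0 of 4 helper and regulatory T cell genes passed, 1 of 6 B cell genes with a probe set and 3 of 8 macrophage genes. Cd4 gave 4.01 to 13, and the B cell gene Cd79a 2.12 to 43, so these defining genes of helper T and B cells, which a spleen also holds, were below the filter. Of 15 squamous tumour markers 10 passed, and the summed signal of the list was 2718 to 3193 on control arrays, 2679 to 3887 with SEMA6A, 2567 to 3164 with SEMA3A and 2850.2 to 3166 with both. Cdh1 and Epcam, at mean signals of 1348 and 859, gave the largest parts of that sum, so it says little about the dimmer markers. The 10 tested markers had a median log2 difference from the control of 0.28 with SEMA6A (7 above 0), 0.11 with SEMA3A (7 above 0) and -0.05 with both (5 above 0). The keratin genes Krt14 and Krt17 and the squamous factor gene Trp63 stayed below the filter. In bulk RNA, a change in the number of cells of a type and a change of RNA per cell cannot be told apart.

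On each of the 12 arrays all 31 genes exceeded that array's median signal. The mean signal ran from 355 for Mvk to 20788 for Scd2, although probe sets differ in brightness for the same amount of RNA and their order is no order of abundance. Variation was modest: the highest of 12 arrays was 1.48 times the lowest for the median member, against 1.65 times for the median of all genes tested. By mean signal 28 of the 31 lay in the top 25% of named genes, and these ratios were not compared at matched signal. Acly, the ATP citrate lyase gene, varied least, with a ratio of 1.11, and Tm7sf2, a sterol reductase gene, most, with 2.77. SEMA6A replicate 2 gave the highest signal of the 12 for 16 members and the lowest for 4, so 20 of 31 (64.5%) had an extreme there, and 46.3% of all genes tested had one on that array. Without it the median ratio was 1.30 for the members and 1.5 for all genes tested.

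**Figure D1:**
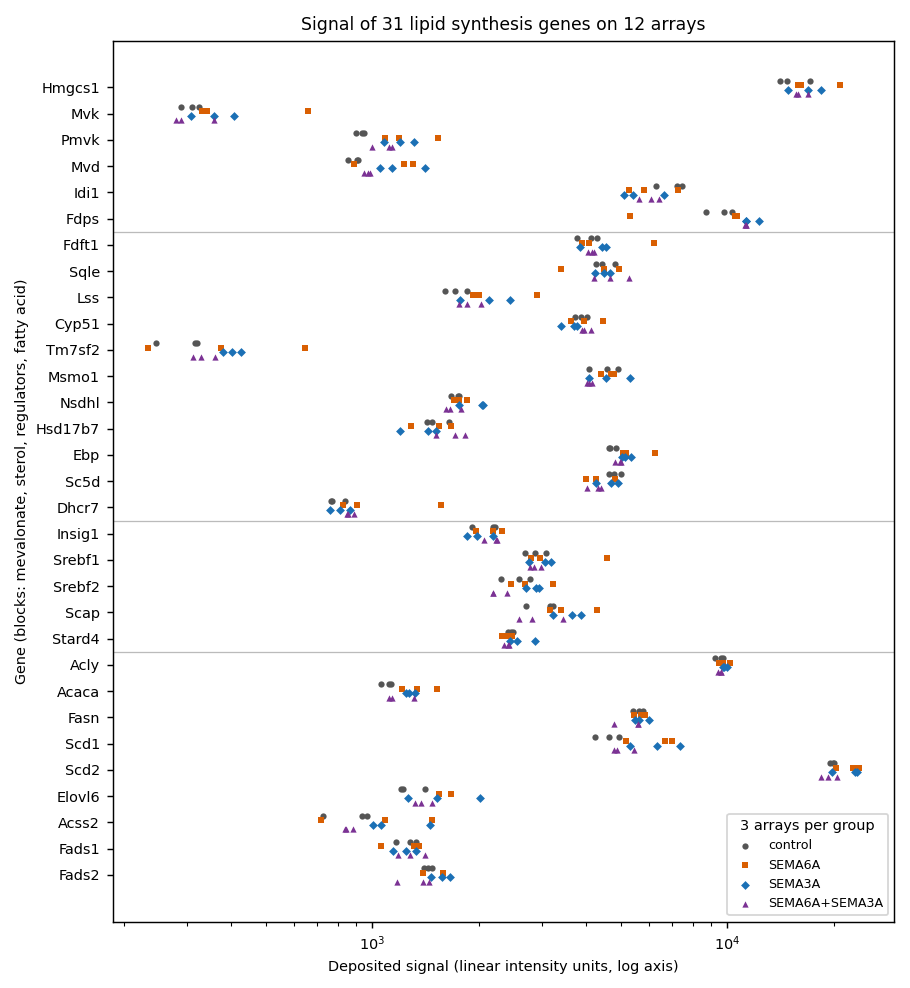
Deposited signal of each of the 31 genes (linear intensity units on a log axis) on 12 arrays, coloured and shaped by group, with grey lines between the mevalonate, sterol, regulator and fatty acid genes. The groups lie close together for most genes, and single SEMA6A points far to the right, as for Mvk, Dhcr7 and Srebf1, are replicate 2.

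None of the 31 genes passed the test in any of 6 comparisons (limma over 11318 genes, Benjamini-Hochberg adjusted p under 0.05), and the share of all genes past it was 0% in each. At an unadjusted p under 0.05, 8 of 31 members stood out with SEMA6A against the control, against 10.5% of all genes, and all 8 were higher. With SEMA3A against the control there were 5, 4 of them higher, against 8.73% of all genes. With both factors against the control there were 0, against 4.1%. For both factors against SEMA3A alone there were 4, 3 of them lower, against 11.2%. For both against SEMA6A alone there were 3, all lower, against 11.5%. For the interaction, which asks whether the effect of both factors differs from the sum of the single ones, there were 11, all below 0, against 18%.

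More members lay above the control than below it with either factor alone. On the log2 scale the median member lay 0.16 above the control with SEMA6A (24 of 31 above 0), 0.11 above with SEMA3A (24 of 31) and 0.05 above with both (20 of 31). The median of all genes tested was 0.02, 0.01 and 0.01, with 53.4%, 51.7% and 53.3% above 0. These 3 comparisons share the control arrays, so their likeness is not independent. Against SEMA3A alone the combined group had a median of -0.13 (24 of 31 below 0), and against SEMA6A alone of -0.17 (25 of 31 below 0), where all genes tested had 0.01 and 0.00. The interaction had a median of -0.25, with 23 of 31 below 0, and all genes tested a median of 0.00. Without SEMA6A replicate 2 the median was 0.06 for SEMA6A against the control, still with 24 of 31 above 0, -0.06 for both against SEMA6A alone, and -0.20 for the interaction, with 26 of 31 below 0. The counts at an unadjusted p under 0.05 were then 4, 0 and 11, against 4.93%, 6.25% and 15.3% of all genes. In that fit the count was 13 for SEMA3A against the control (13.9% of all genes), 3 for both against the control (6.8%) and 8 for both against SEMA3A alone (17.5%), with the same medians as before.

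Groups of deposited signals that did not overlap were counted as well. With SEMA6A, 8 of 31 members had all 3 arrays above all 3 control arrays (7.47% of all genes) and 0 had all below (4.88%). With SEMA3A there were 9 above (10% of all genes) and 0 below (7.34%), and with both factors 4 above (8.56%) and 1 below (6.75%). Against SEMA3A alone, the combined group was above for 2 members (9.67%) and below for 8 (11%). Against SEMA6A alone it was above for 1 (6.43%) and below for 4 (7.3%).

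**Figure D2:**
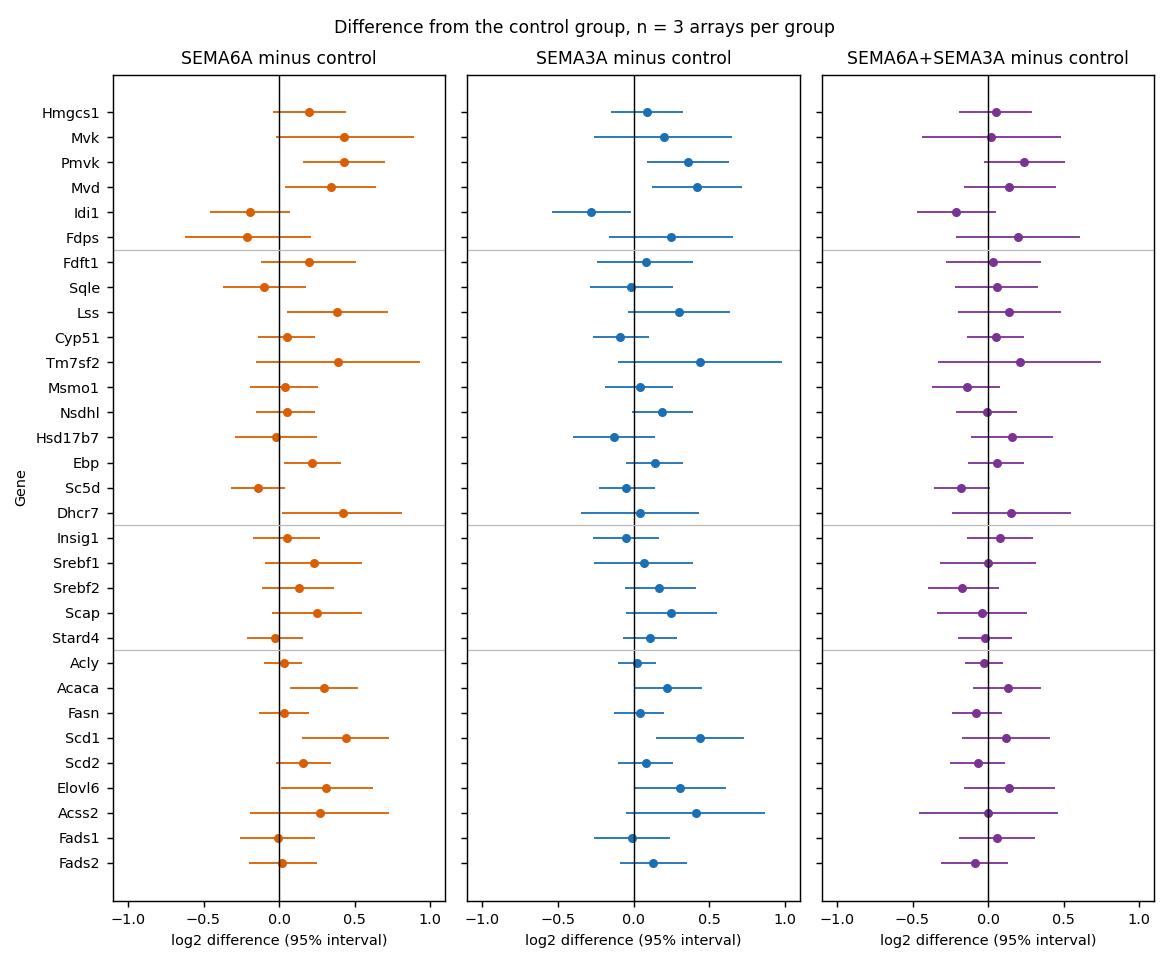
Log2 difference of each gene from the control group (points) with its 95% interval from limma (lines) for SEMA6A, SEMA3A and SEMA6A+SEMA3A, n = 3 arrays per group. The points of the left and middle panels lie mostly to the right of 0, up to 0.44 for Scd1, and those of the right panel lie between -0.21 and 0.24.

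**Figure D3:**
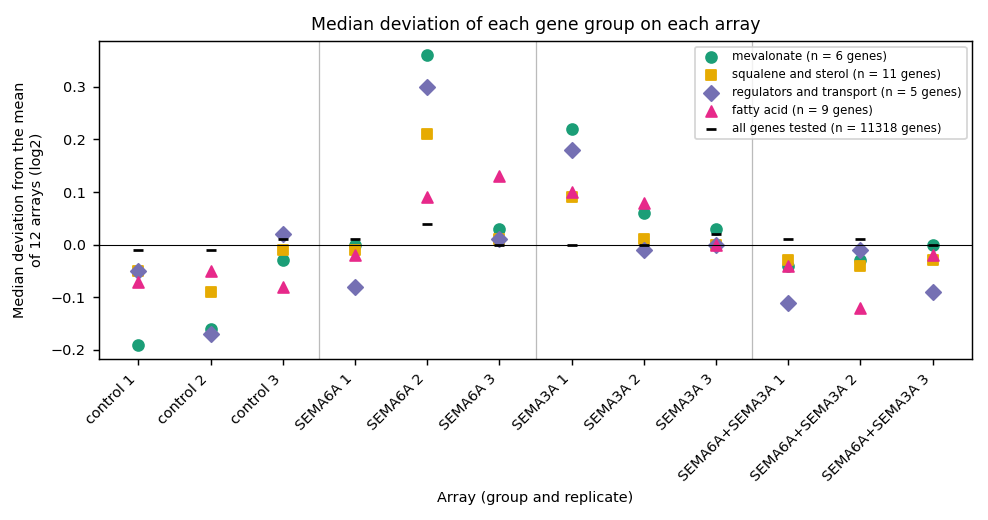
Median deviation of each gene group from its mean over 12 arrays (log2, vertical axis) for every array (horizontal axis), with the median of all genes tested as a dash. SEMA6A replicate 2 is highest for the mevalonate genes, at 0.36, followed by SEMA3A replicate 1, at 0.22, and the arrays of the combined group lie between -0.12 and 0.00.

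The plot of medians by array shows that replicates of a group were not alike. For all 31 members the median deviation was -0.07, -0.09 and -0.01 on the control arrays, -0.02, 0.28 and 0.06 on the SEMA6A arrays, 0.12, 0.04 and 0.00 on the SEMA3A arrays and -0.04, -0.06 and -0.03 on those of the combined group. SEMA6A replicate 1 and SEMA3A replicate 3 therefore lay near the combined group, while SEMA6A replicate 2 and SEMA3A replicate 1 lay highest. The tested squamous tumour markers deviated by -0.05, 0.38 and 0.31 on the SEMA6A arrays, 0.11, 0.25 and -0.23 on the SEMA3A arrays, -0.09, -0.21 and 0.10 on the control arrays and -0.23, -0.12 and 0.07 on the combined ones. On the 3′/5′ measure for the transferrin receptor, ratios were 8.39, 35.7 and 23.3 with SEMA6A, 17.2, 17.6 and 18.1 with SEMA3A, 6.82 to 9.34 in the control group and 5.93 to 12.2 in the combined group. For pyruvate carboxylase they were 6.86, 15.5 and 10.3 with SEMA6A and 6.66, 6.9 and 5.78 with SEMA3A. The control group had 7.01 to 8.26 there, and the combined group 4.36 to 5.81. Gapdh gave 0.771 to 0.796 with SEMA3A and 0.78 to 0.818 in the control group, and beta-actin 1.05 against 0.993 to 1.07. Only for the transferrin receptor did all SEMA3A arrays lie above the control arrays. The 3 tested macrophage markers of 8 listed had their highest medians on the same arrays as the lipid genes, with -0.14, 0.24 and -0.09 on the SEMA6A arrays, 0.39, 0.17 and -0.02 on the SEMA3A arrays, -0.12 to -0.07 on the control arrays and -0.08 to -0.03 on the combined ones. Their list summed to 547 to 619 on the control arrays, 581 to 838 with SEMA6A, 607 to 869 with SEMA3A and 630.3 to 680.3 with both, and Adgre1, Lyz2 and Itgam of that list were below the filter. Of the 3 tested, Cd68 and Cd14 had their highest group mean with SEMA3A, at 296 and 232. Csf1r had its highest in the combined group, at 116.7. Adgre1 was at 43.4 to 51.5 on the combined arrays and at 17.5 to 40.8 on the others. The part of tumour cell RNA, macrophage RNA, cell makeup and RNA quality in the lipid gene differences was not tested.

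In the mevalonate arm, the genes of consecutive steps had differences of both signs. Pmvk encodes phosphomevalonate kinase, which adds the second phosphate to mevalonate. Pmvk gave signals of 950.0, 932 and 901 on the control arrays, 1082, 1533 and 1187 with SEMA6A, 1312, 1196 and 1081 with SEMA3A and 1115, 998 and 1138 with both. Each array of the 3 semaphorin groups lay above the control arrays, and those groups overlapped each other. The log2 difference from the control was 0.43 ± 0.13 (SE) with SEMA6A, 0.36 ± 0.13 with SEMA3A and 0.24 ± 0.13 with both (limma adjusted p = 0.475, 0.553 and 1). Without SEMA6A replicate 2, the first was 0.29.

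Mvd encodes mevalonate diphosphate decarboxylase, which makes isopentenyl diphosphate, the building block of sterols. Mvd gave signals of 854, 904 and 909.8 on the control arrays, 887, 1304 and 1227 with SEMA6A, 1408, 1138 and 1048 with SEMA3A and 987, 975 and 949 with both. The 3 SEMA3A arrays lay above all control arrays and above all combined arrays, the combined arrays lay above the control arrays, and SEMA6A replicate 1 lay within the control range. Its difference from the control was 0.42 ± 0.14 with SEMA3A (limma adjusted p = 0.553), 0.34 ± 0.14 with SEMA6A and 0.14 ± 0.14 with both. A second probe set of Mvd, of nearly the same signal, had 0.25 with SEMA3A and 0.10 with SEMA6A, and -0.05 with both.

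Idi1, the isomerase that interconverts isopentenyl and dimethylallyl diphosphate, lay on the other side. Idi1 was at signals of 7225, 7454 and 6275 on the control arrays, 7252, 5274 and 5838 with SEMA6A, 5421, 5108 and 6637 with SEMA3A and 6102, 5625 and 6428 with both. The SEMA6A and SEMA3A arrays overlapped the control range, and the log2 differences were -0.19 ± 0.12 with SEMA6A, -0.28 ± 0.12 with SEMA3A (limma adjusted p = 0.557) and -0.21 ± 0.12 with both (adjusted p = 1). Without SEMA6A replicate 2 the SEMA6A value was -0.10. The dimmer probe set of Idi1 gave 0.02, -0.10 and 0.34, so the direction with SEMA6A and with both factors depended on the probe set.

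Fdps, the farnesyl diphosphate synthase gene, closes this arm. Fdps had signals of 8699, 9784 and 10313 on the control arrays, 10509, 5311 and 10674 with SEMA6A, 12302, 11276 and 11251 with SEMA3A and 11258, 11253 and 11194 with both. SEMA6A replicate 2 was the lowest of the 12, and the SEMA3A and combined arrays lay above every control and every SEMA6A array. The difference of the combined group from SEMA6A alone was 0.41 ± 0.19 (limma adjusted p = 0.436) and 0.09 without that array, and SEMA6A against the control turned from -0.21 to 0.12. Hmgcs1, the HMG-CoA synthase gene at the head of the pathway, ranged from 14034 to 20769.6, with log2 differences from the control of 0.20 ± 0.11, 0.09 ± 0.11 and 0.05 ± 0.11 for SEMA6A, SEMA3A and both. The SEMA6A value of Hmgcs1 was 0.05 without replicate 2 of that group. Its second brightest probe set, of nearly equal signal, gave -0.04, -0.01 and 0.02. Mvk, the mevalonate kinase gene, ranged from 279 to 661, with the highest value on SEMA6A replicate 2. Its difference with SEMA6A was 0.43 ± 0.21, or 0.13 without that array. The dimmer probe set of Mvk gave 0.18 with SEMA6A and 0.41 with SEMA3A, where the brightest gave 0.20.

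**Figure D4:**
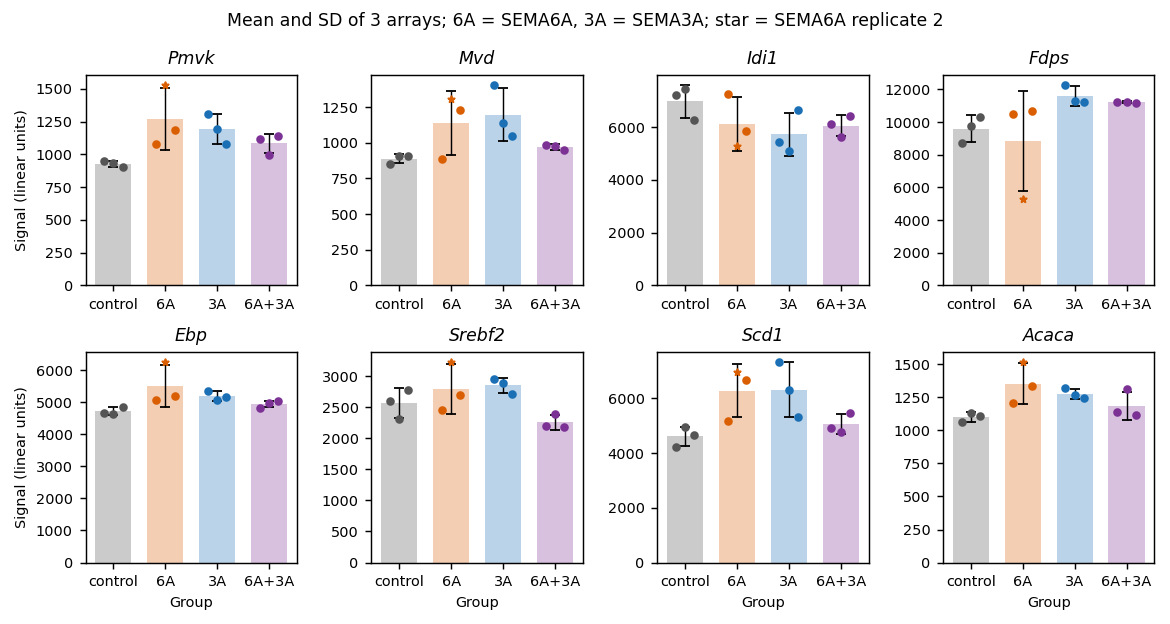
Signal of 8 genes (linear units) by group, with bars for the mean of 3 arrays, error bars for the SD, points for arrays and a star for SEMA6A replicate 2. Pmvk, Ebp, Scd1 and Acaca have all SEMA6A and all SEMA3A arrays above the control arrays, Srebf2 has its lowest mean in the combined group, and the star is far below the other points for Fdps.

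Among the 11 genes of squalene and sterol formation, the median difference from the control was 0.05 with SEMA6A, 0.04 with SEMA3A and 0.06 with both. Ebp encodes the sterol isomerase that moves the ring double bond. Ebp gave signals of 4669, 4648 and 4857 on the control arrays, 5076, 6265 and 5188 with SEMA6A, 5358, 5063 and 5158 with SEMA3A and 4836, 4978 and 5029.8 with both. All arrays of both single-factor groups lay above the control arrays and above the combined arrays, and the combined arrays overlapped the control range. Its differences from the control were 0.22 ± 0.09, 0.14 ± 0.09 and 0.06 ± 0.09 for SEMA6A, SEMA3A and both (limma adjusted p = 0.475, 0.634 and 1), and the SEMA6A value was 0.12 without SEMA6A replicate 2.

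Lss, the lanosterol synthase that closes the sterol rings, was at 1721 ± 126 (SD, n = 3) in the control group, 2276 ± 557 with SEMA6A, 2111 ± 336 with SEMA3A and 1873 ± 136 with both. The SEMA6A arrays lay above all control arrays, and the difference was 0.38 ± 0.16, or 0.19 without SEMA6A replicate 2. The dimmer probe sets of Lss gave 0.12 and 0.33 with SEMA6A and 0.20 and 0.00 with SEMA3A, where the brightest gave 0.30. Dhcr7 encodes the reductase of the last step to cholesterol. Dhcr7 had signals of 766, 769 and 838 on the control arrays, 904, 1559 and 824 with SEMA6A, 761, 810.0 and 865 with SEMA3A and 849.9, 887 and 854 with both. A single array, SEMA6A replicate 2, was far above the rest, and the difference with SEMA6A was 0.42 ± 0.18 with it and 0.14 without it.

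Hsd17b7 and Nsdhl, of the removal of the methyl groups of lanosterol, had differences of opposite sign when both factors were set against SEMA3A alone. Hsd17b7 was at 1472, 1428 and 1648 on the control arrays, 1545, 1662 and 1284 with SEMA6A, 1437, 1193 and 1506 with SEMA3A and 1706, 1818 and 1508 with both. All combined arrays lay above all SEMA3A arrays, and the difference was 0.29 ± 0.13 (limma adjusted p = 0.429). Nsdhl was at 1753, 1743 and 1667 on the control arrays, 1752, 1696 and 1847 with SEMA6A, 2034, 2049 and 1751 with SEMA3A and 1780.1, 1609 and 1657 with both. The combined and SEMA3A arrays overlapped, at a difference of -0.20 ± 0.09 (limma adjusted p = 0.438). Sc5d, the sterol desaturase gene, was at 4636, 4786 and 5018 in the control group and 4331, 4021 and 4405 in the combined group. No combined array reached the control range, and the difference of -0.18 ± 0.08 had the smallest p of all members in that comparison (limma adjusted p = 1). Its dimmer probe set gave -0.01. Probe sets of the designs used for Hsd17b7, Fdft1, Lss and Mvd can take up signal of related transcripts, so their values are less certain.

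Sqle, Cyp51 and Msmo1 had the smaller differences among the other sterol genes, by their brightest probe sets. Sqle, the squalene epoxidase gene, ranged from 3408 to 5294, Cyp51, of lanosterol demethylation, from 3401 to 4456, and Msmo1, the methylsterol oxidase gene, from 4012 to 5333. Their log2 differences from the control lay between -0.14 (Msmo1 with both factors) and 0.06 (Sqle with both factors). The 95% interval for Cyp51 was -0.14 to 0.24 with SEMA6A, -0.27 to 0.10 with SEMA3A and -0.14 to 0.24 with both. Its second brightest probe set, with a mean signal of 1870, gave larger differences, of -0.09, -0.24 and 0.23. For both factors against SEMA3A alone that probe set gave 0.47 (limma adjusted p = 0.376), and the brightest gave 0.14. Fdft1, the squalene synthase gene, and Tm7sf2 were highest on SEMA6A replicate 2, at 6194 and 647. Without it their differences with SEMA6A were -0.02 and 0.03, against 0.20 and 0.39 with it. The second brightest probe set of Fdft1 gave 0.02 with all arrays. With SEMA3A all Tm7sf2 arrays, at 427, 402 and 379.7, lay above the control arrays, at 245, 319.7 and 316, and the difference was 0.44 ± 0.25 (limma adjusted p = 0.602).

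Srebf2 encodes SREBP-2, the factor that mainly drives the sterol genes, and its signals lay lowest in the combined group without passing the test. Srebf2 gave signals of 2595, 2307 and 2783 on the control arrays, 2451, 3229.6 and 2695 with SEMA6A, 2951, 2888 and 2717 with SEMA3A and 2190.2, 2397 and 2181 with both. The 3 combined arrays lay below every SEMA3A and every SEMA6A array, and overlapped the control range. The difference was -0.34 ± 0.11 (SE) from SEMA3A alone (limma adjusted p = 0.401) and -0.29 ± 0.11 from SEMA6A alone (adjusted p = 0.424), or -0.19 without SEMA6A replicate 2. From the control it was 0.13 ± 0.11 with SEMA6A, 0.17 ± 0.11 with SEMA3A and -0.17 ± 0.11 with both (limma adjusted p = 1 for both), and the SEMA6A value was 0.02 without that array. The second probe set gave -0.17 from SEMA3A alone, -0.09 from SEMA6A alone and 0.09 from the control, so its direction against the control with both factors was the other one.

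Scap, the escort of SREBP, was at 3158, 4301 and 3400.0 with SEMA6A, 3653, 3868 and 3235 with SEMA3A, 2589.9, 3450.0 and 2823 with both and 3166, 2703 and 3235 in the control group. All groups overlapped, with differences of -0.29 ± 0.14 and -0.29 ± 0.14 for both factors against SEMA3A and against SEMA6A alone (limma adjusted p = 0.443 and 0.438); the latter was -0.16 without SEMA6A replicate 2. Srebf1, the SREBP-1 gene, which mainly serves fatty acid synthesis, was at 4585 on SEMA6A replicate 2 and at most 3183 on the other arrays. Its difference with SEMA6A was 0.23 ± 0.15, or 0.01 without that array. Insig1, the sterol-sensing retention protein gene and itself an SREBP target, ranged from 1848 to 2323, with differences from the control of 0.05 ± 0.10, -0.05 ± 0.10 and 0.08 ± 0.10. Stard4, a cytosolic sterol carrier gene, ranged from 2318 to 2879.5, with differences of -0.03 ± 0.08, 0.11 ± 0.08 and -0.02 ± 0.08.

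The fatty acid arm held the gene with the smallest p for the interaction. Scd1 encodes stearoyl-CoA desaturase, which puts a double bond into palmitate and stearate. Scd1 gave signals of 4234, 4945 and 4647 on the control arrays, 5182, 6981 and 6675 with SEMA6A, 7338, 6317 and 5316 with SEMA3A and 4902, 4779.5 and 5465 with both. All SEMA6A and all SEMA3A arrays lay above all control arrays, and the combined group overlapped all 3 others. The difference from the control was 0.44 ± 0.13 (SE) with SEMA6A, 0.44 ± 0.13 with SEMA3A and 0.12 ± 0.13 with both (limma adjusted p = 0.475, 0.553 and 1). For both factors the difference was -0.32 ± 0.13 from SEMA3A alone and -0.32 ± 0.13 from SEMA6A alone (limma adjusted p = 0.416 and 0.424), the latter -0.23 without SEMA6A replicate 2. The interaction was -0.77 ± 0.19 (adjusted p = 0.197), and -0.67 without SEMA6A replicate 2. Its second probe set gave 0.45, 0.36 and 0.10 against the control and -0.71 for the interaction.

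Scd2, a second desaturase gene of the same family, was at 19781 ± 297 (SD, n = 3) in the control group, 22101 ± 1631 with SEMA6A, 21958 ± 1915 with SEMA3A and 19311 ± 996 with both. The SEMA6A arrays lay above the control arrays, and the combined group differed from SEMA6A alone by -0.23 ± 0.08 (limma adjusted p = 0.424), or -0.15 without SEMA6A replicate 2, with overlapping arrays. Scd1 and Scd2 are paralogs of similar sequence, and signal shared between their probe sets was not tested. Acaca encodes acetyl-CoA carboxylase, which commits acetyl-CoA to fatty acid synthesis. Acaca had signals of 1061, 1130.0 and 1112 on the control arrays, 1208, 1519.8 and 1335 with SEMA6A, 1320.0, 1270.4 and 1244 with SEMA3A and 1136, 1310.4 and 1117 with both. All SEMA6A and all SEMA3A arrays lay above the control arrays, at differences of 0.30 ± 0.10 and 0.22 ± 0.10 (adjusted p = 0.475 and 0.568), and 0.13 ± 0.10 with both. A second probe set, with a mean signal of 72.5, pointed the other way with SEMA6A, at -0.30.

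Elovl6, which lengthens palmitate, was at 1220.3, 1409.6 and 1208 in the control group, 1538, 1545 and 1668 with SEMA6A, 1524, 2006 and 1261 with SEMA3A and 1318, 1368 and 1472 with both. The SEMA6A arrays lay above the control and combined arrays, and the SEMA3A arrays did not. Acss2, the acetyl-CoA synthetase gene, ranged from 716 to 1468, with differences of 0.27 ± 0.21, 0.41 ± 0.21 and 0.00 ± 0.21 from the control; the SEMA6A value was 0.03 without its replicate 2. The core synthesis genes Acly and Fasn had narrow ranges. Acly ranged from 9221 to 10199 and Fasn, the fatty acid synthase gene, from 4779.5 to 6005. The 95% intervals of their differences from the control were -0.10 to 0.15 and -0.13 to 0.20 with SEMA6A, -0.10 to 0.15 and -0.13 to 0.20 with SEMA3A, and -0.15 to 0.10 and -0.24 to 0.09 with both. Fads1 and Fads2, the desaturases of polyunsaturated fatty acids, ranged from 1055 to 1405 and from 1170.4 to 1652, with differences from the control between -0.09 and 0.13.

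For the interaction, the members with the smallest p were Scd1, Pmvk at -0.56 ± 0.18, Mvd at -0.62 ± 0.20 and Srebf2 at -0.47 ± 0.15 (SE; limma adjusted p = 0.197, 0.197 and 0.2). Without SEMA6A replicate 2 they were at -0.67, -0.42, -0.52 and -0.36 in that order. Leaving out SEMA6A replicate 1 changed the call: 7 members then passed (Scd1, Mvd, Pmvk, Srebf2, Scd2, Acss2 and Tm7sf2, all below 0). Scd1 was then at -0.91 (limma adjusted p = 0.0136), and 1263 genes passed in all. The SEMA6A group of that fit was replicates 2 and 3, and replicate 2 is the array that stood apart in RNA quality. With replicate 2 left out instead, none of the 7 passed (smallest limma adjusted p = 0.266, for Scd1). Tm7sf2 was then at -0.26 and Acss2 at -0.44, against -0.94 for each without replicate 1. Without SEMA3A replicate 3, 1 member passed, Scd1 at -0.89 (adjusted p = 0.0352), among 266 genes. For SEMA6A against the control, 3 members passed without SEMA6A replicate 1, among 503 genes. They were Scd1 at 0.59, Pmvk at 0.53 and Mvd at 0.50 (adjusted p = 0.0352, 0.043 and 0.0436). With SEMA6A replicate 2 left out instead, these 3 were at 0.35, 0.29 and 0.24 and did not pass (limma adjusted p = 0.879 for each). By the median deviation of the 31 members, SEMA6A replicate 1 and SEMA3A replicate 3 were the lowest arrays of their groups.

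Related lipid genes outside the 31 were measured from 3 lists, and 0 of their tested members passed in any comparison. The list of other sterol pathway genes (25 listed, 20 with a probe set of a single gene, 19 tested) had medians of 0.00, -0.02 and -0.02 against the control with SEMA6A, SEMA3A and both, with 10, 8 and 4 of 19 above 0. Among its genes Npc2, a lysosomal cholesterol carrier, had an interaction of -0.36 ± 0.13 (SE; limma adjusted p = 0.212) and Pgrmc1, a haem-binding partner of sterol enzymes, a difference of -0.25 ± 0.11 with both factors (adjusted p = 1). The list of sterol efflux and esterification (15 listed, 9 tested) had medians of 0.19, 0.07 and -0.03, with 8, 8 and 2 of 9 above 0. Abcg1, a cholesterol exporter gene, had an interaction of -0.93 ± 0.43 (adjusted p = 0.278), and Osbp, the oxysterol-binding protein gene, lay at -0.19 ± 0.09 for both factors against SEMA3A alone (adjusted p = 0.442). The list of other fatty acid genes (34 listed, 25 tested) had medians of 0.06, 0.05 and 0.00. Cpt1a, the gate of fatty acid entry into mitochondria and so of oxidation rather than synthesis, had 0.60 ± 0.14 with SEMA6A, 0.37 ± 0.14 with SEMA3A and 0.22 ± 0.14 with both (adjusted p = 0.475, 0.553 and 1). Hacd1, a dehydratase of fatty acid elongation, lay at -0.81 ± 0.33, -0.73 ± 0.33 and 0.16 ± 0.33 in the same comparisons, and its interaction was 1.70 ± 0.46 (adjusted p = 0.197). Abcg1, Npc2 and Cpt1a had their highest signal of the 12 arrays on SEMA6A replicate 2, at 711, 12372 and 898. On the other SEMA6A arrays Abcg1 was at 231 and 394. Pgrmc1 had its lowest signal on replicate 2, at 2815, and Osbp and Hacd1 had neither extreme there. How far the values of these lists rest on that array was not tested.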

How the data were processed

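RNA of cocultured splenocytes was measured on 12 one-colour Affymetrix mouse arrays. The deposited values are linear signal intensities made by the authors with MAS5, per the submitters' processing notes; the 2% trimmed mean of each array is 500. Version and further settings are not given in the sources used here. Members and lists were chosen with earlier results of these data known.

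Intensities plus a pseudocount of 16 were put on the log2 scale and quantile normalised over 45101 probe sets, so log2 differences understate changes of dim genes. Of the 45037 probe sets that are no controls, 34945 name 1 gene in the platform annotation, 932 several, and 9160 are not listed. A gene took its brightest single-gene probe set, which had to exceed its array's median on at least 3 arrays. limma 3.58.1 (R 4.3.3) fitted 4 group means over 12 arrays with a trended prior, 8 residual degrees of freedom and Benjamini-Hochberg adjustment over 11318 genes. Precision is limited by the number of arrays: the median 95% interval reached 0.33 log2 units to either side (0.47 for the interaction). Levels are deposited signals.

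Every member is described by its levels, and the 4 of smallest p in each comparison by their difference and adjusted p; of each pathway list the 2 genes of smallest p are named. Differences of further members, and of Cpt1a and Hacd1 in other comparisons, were added after their values were seen. On simulated data (20 draws, 200 of 11318 genes changed, SEMA6A against control) 41% of 1.5-fold, 76.4% of 2-fold and 95.3% of 4-fold changes were recovered, and 5.47% of calls were false. There each gene varied independently, with no array that stood apart over many genes as SEMA6A replicate 2 did, so these shares need not hold here. Alternatives were pseudocount, quantile step, filter, probe set, prior, arrays fitted, replicate block and each array left out; 2 were chosen after seeing the data, namely every passing probe set fitted and the counts without SEMA6A replicate 2.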

Additional observations from a re-analysis of the deposited data

Results flagged for a closer look

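Ebp, the sterol isomerase gene, had an interaction of -0.31 on the log2 scale (limma adjusted p = 0.236), with every SEMA6A and every SEMA3A array above the control arrays and every combined array below both single-factor groups. SEMA6A thus lay above its comparator in the absence of SEMA3A (0.22) and below it in its presence (-0.08). Without SEMA6A replicate 2 the first was 0.12 and the interaction -0.20. That difference did not pass the test over all genes.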

How the results depend on the processing

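Across 499 alternative values of the named members, 488 kept their direction and their side of the threshold, 4 changed sign and 7 passed the threshold. The 4 sign changes came when each gene took its probe set of largest interquartile range: Acaca with SEMA6A at -0.30, Idi1 and Srebf2 with both factors at 0.34 and 0.09 against the control, and Hsd17b7 at -0.03 for both factors against SEMA3A. The 7 that passed did so without SEMA6A replicate 1 or SEMA3A replicate 3. With that probe set choice 28 members were tested, the SEMA6A median was 0.05 and 1 gene passed with both factors against the control; 4 passed there with only the arrays compared, and 1 for both factors against SEMA6A without a prior trend. The cause was not tested. Leaving out each array gave 0 to 503 genes, 0 to 3 members and a median of 0.06 to 0.24 for SEMA6A against the control, and 0 to 2 genes for both factors against the control. For both factors against SEMA6A it gave 0 to 374 genes and a median of -0.22 to -0.06, and for the interaction 0 to 1263 genes, 0 to 7 members and a median of -0.37 to -0.20. For SEMA3A against the control and both factors against SEMA3A, 0 genes passed under every alternative run; in the reported fit 988 and 1273 had an unadjusted limma p under 0.05. Arrays of the same replicate number in different groups were not more alike than others. After removal of group means, the 18 same-number pairs had correlations of -0.36 to 0.14 (median -0.08), and 1 was over 0.1. The 36 other pairs had a median of 0.02. Such correlations cannot show whether same-number samples shared an animal or a culture. With the replicate block 0 members passed in any comparison, and the interaction of Scd1 was -0.77 (limma adjusted p = 0.28). With every passing probe set fitted, 65 of 24332 belonged to members and 0 passed.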
